A study of Homo sapiens with 6 samples.

Results

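The 38 genes described here are targets of the transcription factor p53 and genes of the senescence program, chosen by symbol and kept where a gene had at least 10 estimated counts in at least 3 of 6 RNA-seq libraries. All 38 listed symbols met this rule, as did 15296 of the 58884 genes in the deposited table. SPATA18 was the gene closest to the limit, with 9 counts in its lowest and 20 in its highest library, and it reached 10 counts in 5 libraries, whereas the other 37 reached it in all 6. RNA was sequenced from immortalized human cardiomyocytes in 2 groups of 3 libraries each. NC cells had received a negative control siRNA and SiCIRBP cells a siRNA that targets the cold-inducible RNA-binding protein CIRBP, and the labels name no drug for either group. The labels give the line as T0519, while the study's text gives AC16 for its transcriptome experiment, so the line is stated here only as a human immortalized ventricular cardiomyocyte line. AC16 is known to derive from adult ventricular cells fused with SV40-transformed fibroblasts, and the large T antigen of SV40 binds p53 and RB. Viral transcripts were not analysed here. The study set NC_1 and SiCIRBP_2 aside before its test, so that NC_2 and NC_3 were compared with SiCIRBP_1 and SiCIRBP_3. That comparison of 4 libraries is given first below, and SiCIRBP_2 is shown separately throughout.

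p53 is a transcription factor that is kept low by the ubiquitin ligase MDM2 and that accumulates after DNA damage and other stress. It then switches on genes for growth arrest, DNA repair, cell death and metabolism, among them CDKN1A, whose product p21 inhibits cyclin-dependent kinases, and MDM2 itself, which closes a negative feedback loop. CDKN2A encodes p16, an inhibitor of CDK4 and CDK6 that accumulates in senescent cells, and, from another reading frame, ARF, which restrains MDM2. Anthracycline drugs damage DNA in heart muscle cells and are known to activate this pathway. The study followed p21 and p16, as proteins on immunoblots of cells given doxorubicin, as readouts of signalling by the opioid growth factor receptor. The values below are RNA, and the gene total of CDKN2A does not separate p16 from ARF.

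The libraries held 25726259 to 29919566 estimated counts. CIRBP (chromosome 19, 1259384 to 1274880) measured 86.4, 85.8 and 91.0 CPM (read counts normalized to library size, with the TMM factors of edgeR) in NC_1, NC_2 and NC_3, and 54.8, 24.3 and 46.3 CPM in SiCIRBP_1, SiCIRBP_2 and SiCIRBP_3. Every SiCIRBP library was therefore below every NC library, with SiCIRBP_2 the lowest, and over the 4 libraries CIRBP fell by 0.81 on the log2 scale (SE 0.11, edgeR adjusted p = 0.00828). SiCIRBP_2 also stood apart in the 16 interferon-stimulated genes listed for this purpose, which summed to 5639 CPM there against 562 to 594 CPM in the NC libraries, 324 CPM in SiCIRBP_1 and 1070 CPM in SiCIRBP_3. Of 15 cardiomyocyte markers, 4 reached 10 counts in 3 libraries, and MYH6, MYL2, RYR2 and PLN had less than 1 count in every library. Their sum was 111 to 142 CPM in NC, 102 in SiCIRBP_1, 75.2 in SiCIRBP_2 and 103 in SiCIRBP_3. Of 10 fibroblast markers, 8 reached the limit, summing to 6690 to 7022 CPM in NC, 7353 in SiCIRBP_1, 6822 in SiCIRBP_2 and 10791 in SiCIRBP_3. Over the 4 libraries NKX2-5 (log2 -1.24), GATA4 (-0.41) and PDGFRA (-0.38) were called lower and COL1A1 (0.87) higher, and the part of cell state in the results below was not tested. Nothing in the labels says that the libraries of a group came from separate cultures, and the p-values then measure only the spread between these libraries, which may be technical. In such bulk RNA, fewer cells that express a gene and less RNA per cell cannot be told apart.

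Promoter sequences were available in the RefSeq table (GRCh38.p14, 250 bases before to 50 bases after each annotated start) for 31 of the 38 genes, with 49 windows in all. TP53INP1, ASCC3, RRM2B, PHLDA3, GADD45A, CMBL and TNFRSF10B had no window. The p53 response element is built from copies of a degenerate decamer, which reads the same on both strands. A full match to the decamer was found in windows of 7 genes (22.6% of the 31), namely DDB2, PLK2, EI24, SESN1, FAS, AEN and FDXR, and in 7 of the 49 windows (14.3%), against 2329 of all 35116 windows in the table (6.63%). More than 1 decamer, at any spacing, was found in 108 windows of the table (0.308%). Of these windows, 1 belonged to the genes described here, that of DDB2. Of the 7 genes, 3 passed the test between the groups described below, which 19.4% of all genes tested passed. The genes with a decamer are too few to show whether it goes with being called. The windows of these 3 genes are printed on the strand of the gene, 5′ to 3′, with the decamers in capitals. The DDB2 window lies at chr11:47214724-47215023 on the plus strand, with decamers starting at positions 6 and 17 counted from the start of transcription as 1. That of PLK2 lies at chr5:58460037-58460336 on the minus strand, with a decamer starting at position -132. That of EI24 lies at chr11:125569227-125569526 on the plus strand, with a decamer starting at position -10.
DDB2: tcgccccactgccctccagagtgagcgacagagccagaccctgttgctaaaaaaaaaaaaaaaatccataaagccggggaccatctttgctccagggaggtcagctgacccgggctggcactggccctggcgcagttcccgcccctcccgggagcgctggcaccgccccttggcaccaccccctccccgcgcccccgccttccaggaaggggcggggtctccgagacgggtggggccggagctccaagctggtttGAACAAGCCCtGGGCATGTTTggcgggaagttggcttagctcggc
PLK2: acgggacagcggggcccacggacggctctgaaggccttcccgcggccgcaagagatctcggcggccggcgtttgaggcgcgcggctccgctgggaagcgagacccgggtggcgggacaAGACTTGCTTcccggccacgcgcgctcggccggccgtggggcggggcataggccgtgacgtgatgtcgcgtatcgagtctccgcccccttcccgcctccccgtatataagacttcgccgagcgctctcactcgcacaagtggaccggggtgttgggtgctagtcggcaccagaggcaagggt
EI24: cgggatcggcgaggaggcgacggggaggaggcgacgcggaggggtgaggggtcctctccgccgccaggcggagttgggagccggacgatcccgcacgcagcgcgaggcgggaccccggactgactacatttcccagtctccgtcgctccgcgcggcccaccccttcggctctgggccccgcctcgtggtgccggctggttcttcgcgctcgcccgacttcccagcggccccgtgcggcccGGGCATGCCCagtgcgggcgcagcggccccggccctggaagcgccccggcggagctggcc
DDB2 was lower after knockdown and PLK2 and EI24 were higher, so that the presence of a decamer in these windows did not go with a single direction. A match is a match of letters and shows no binding, and a window without one says nothing of sites elsewhere.

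Levels of different genes were compared per length, in TPM (counts scaled by transcript length and by library, median of the 6 libraries). CDKN2A was the most abundant of the 38 genes at 356 TPM. EI24 followed at 117 TPM, and GADD45A, PLK2 and TNFRSF10B came next at 73.3, 70.1 and 52.6 TPM. CDKN1A, at 26.1 TPM, and MDM2, at 14.6 TPM, ranked 11 and 14 of 38, above the median of 9.28 TPM. The least abundant were FAS at 0.91 TPM, KITLG and ACER2 below that, and SPATA18 at 0.26 TPM, and the fold changes of these last genes rest on few counts. ACER2, for example, had 13 to 34 counts per library.

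Over the 4 libraries, CIRBP knockdown was accompanied by small changes in both directions rather than by a shared rise or fall of p53 targets. The genes that rose were TRIAP1, SERTAD1, PLK2 and EI24. Those that fell were DDB2, PLK3, GADD45A and CCNG1. CDKN1A, CDKN2A and MDM2 did not pass the test. None of these 8 changes reached 2-fold, the largest being the 1.81-fold rise of TRIAP1. In numbers, 4 of 38 genes were called higher (10.5%) and 4 lower (10.5%) at an adjusted p under 0.05 (edgeR quasi-likelihood test, Benjamini-Hochberg over 15421 genes), against 9.62% higher and 9.76% lower among all genes tested, so the genes were called about as often as genes at large. With a change of at least 2-fold also required, 0 of the 38 were called, against 3.62% of all genes. The median log2 fold change of the 38 was -0.18 and 16 of them were positive, against a median of 0.00 over all genes, of which 49.8% were positive. Leaving out NC_2 or NC_3 left 0 calls among the 38, against 1.04% and 0.403% of all genes, whereas leaving out SiCIRBP_1 gave 22, against 44.3% of all genes, and leaving out SiCIRBP_3 gave 15, against 40.2%. In each of these fits the group with 1 library is assumed to vary like the other group, whose pair alone gives the spread, so they do not show whether the calls are stable.

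**Figure D1:**
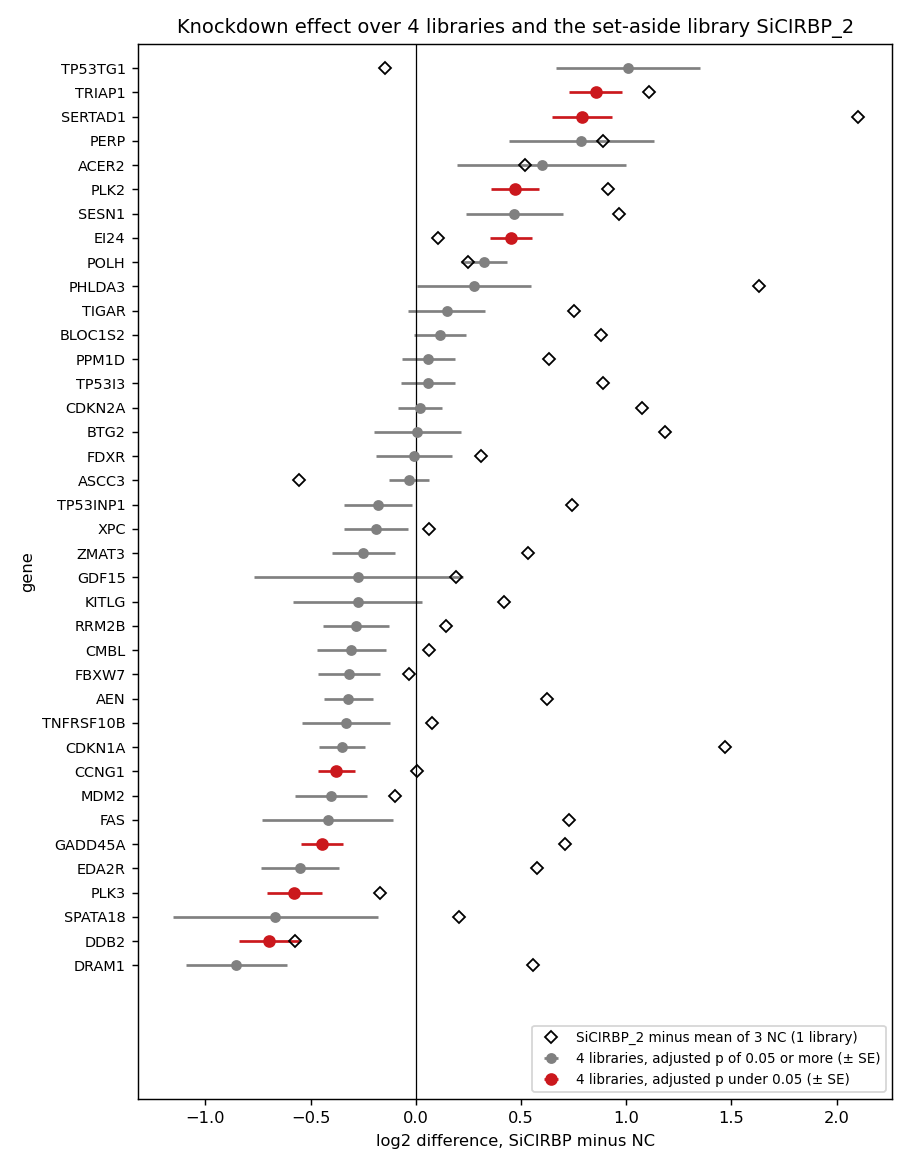
Log2 difference between SiCIRBP and NC (horizontal axis) for each of the 38 genes (vertical axis, ordered by the 4-library estimate). Filled points are edgeR estimates over NC_2, NC_3, SiCIRBP_1 and SiCIRBP_3, red where the adjusted p was under 0.05. Bars are standard errors implied by the test statistic, and open diamonds are the single library SiCIRBP_2 minus the mean of the 3 NC libraries. The 8 red points lie between -0.70 and 0.86, while the diamonds reach 2.10 for SERTAD1 and lie above 0 for 32 genes.

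The 9 genes of the first group act in growth arrest and the cell cycle, and 2 of them rose and 3 fell, against 9.62% and 9.76% of all genes tested. CDKN1A (ENSG00000124762, chromosome 6, 36676460 to 36687339) measured 31.8, 41.2 and 46.9 CPM in NC_1, NC_2 and NC_3, 34.8 CPM in SiCIRBP_1 and 34.2 CPM in SiCIRBP_3, but 111 CPM in SiCIRBP_2. SiCIRBP_1 and SiCIRBP_3 lay within the range of the NC libraries, and SiCIRBP_2 lay far above it. The log2 fold change was -0.35 (SE 0.11, edgeR adjusted p = 0.0637) over the 4 libraries and 0.59 (SE 0.44, edgeR adjusted p = 0.431) over all 6, and it was -0.21 over the 5 libraries without SiCIRBP_2 and 0.45 over the 5 without NC_1, so the direction depended on SiCIRBP_2. In an exact two-sided permutation test of the 3 against 3 libraries p was 0.8, where the smallest p possible is 0.1.

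CDKN2A (ENSG00000147889, chromosome 9, 21967753 to 21995301) measured 199, 195 and 186 CPM in the NC libraries, 176 in SiCIRBP_1 and 211 in SiCIRBP_3, and 409 CPM in SiCIRBP_2. SiCIRBP_1 and SiCIRBP_3 lay on either side of the NC range, and SiCIRBP_2 lay far above it. The log2 fold change over the 4 libraries was 0.02 (SE 0.10, edgeR adjusted p = 0.901), and the exact permutation p over 3 against 3 libraries was 0.5. The antisense gene CDKN2B-AS1 shares 341 exon bases with CDKN2A on the opposite strand, and the strandedness of the counting is not given in the sources used here, so that reads from these bases cannot be assigned with certainty.

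SERTAD1 (ENSG00000197019, chromosome 19, 40421592 to 40426025), a partner of cyclin D-CDK4 complexes that also stimulates E2F-dependent transcription, measured 21.5, 17.9 and 15.5 CPM in the NC libraries, 26.4 in SiCIRBP_1, 31.4 in SiCIRBP_3 and 81.2 in SiCIRBP_2. Every SiCIRBP library was above every NC library. SERTAD1 rose 1.73-fold over the 4 libraries (log2 0.79, SE 0.14, edgeR adjusted p = 0.0160).

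PLK2 (ENSG00000145632, chromosome 5, 58453982 to 58460260), a polo-like kinase that acts in centriole duplication and whose promoter window is printed above, measured 92.9, 101 and 103 CPM in the NC libraries and 127, 157 and 188 CPM in SiCIRBP_1, SiCIRBP_3 and SiCIRBP_2. The groups did not overlap. PLK2 rose 1.39-fold over the 4 libraries (log2 0.47, SE 0.11, edgeR adjusted p = 0.0334).

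GADD45A (ENSG00000116717, chromosome 1, 67685061 to 67688338), a damage-induced growth arrest protein, measured 51.4, 70.0 and 63.4 CPM in NC_1, NC_2 and NC_3, 51.0 in SiCIRBP_1, 46.9 in SiCIRBP_3 and 101 in SiCIRBP_2. Among the 4 libraries the groups were separate, but NC_1 was close to SiCIRBP_1 and SiCIRBP_2 was the highest of all. Over the 4 libraries GADD45A fell by 0.45 on the log2 scale (SE 0.10, edgeR adjusted p = 0.0280), and over all 6 the estimate was 0.10 (edgeR adjusted p = 0.844).

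PLK3 (ENSG00000173846, chromosome 1, 44800225 to 44805990), a stress-responsive polo-like kinase, measured 15.3, 23.2 and 24.7 CPM in NC_1, NC_2 and NC_3, and 17.3, 14.8 and 18.2 CPM in SiCIRBP_1, SiCIRBP_3 and SiCIRBP_2. Here NC_1 lay between SiCIRBP_1 and SiCIRBP_3, so that the groups overlapped once all 6 libraries were considered. Over the 4 libraries PLK3 fell by 0.58 (SE 0.13, edgeR adjusted p = 0.0281).

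CCNG1 (ENSG00000113328, chromosome 5, 163437569 to 163446151) encodes cyclin G1, which directs a phosphatase to MDM2. It measured 55.9, 64.9 and 65.5 CPM in the NC libraries, 48.7 in SiCIRBP_1, 51.6 in SiCIRBP_3 and 62.2 in SiCIRBP_2. SiCIRBP_2 fell inside the NC range. Over the 4 libraries CCNG1 fell by 0.38 (SE 0.09, edgeR adjusted p = 0.0316). BTG2, an antiproliferative factor that promotes mRNA deadenylation, measured 7.43, 8.04 and 8.69 CPM in NC, 9.90 and 6.91 CPM in SiCIRBP_1 and SiCIRBP_3, and 19.5 CPM in SiCIRBP_2. FBXW7, a substrate receptor of a ubiquitin ligase for cyclin E, ranged from 8.16 to 11.0 CPM over all libraries (edgeR adjusted p = 0.171 over the 4).

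**Figure D2:**
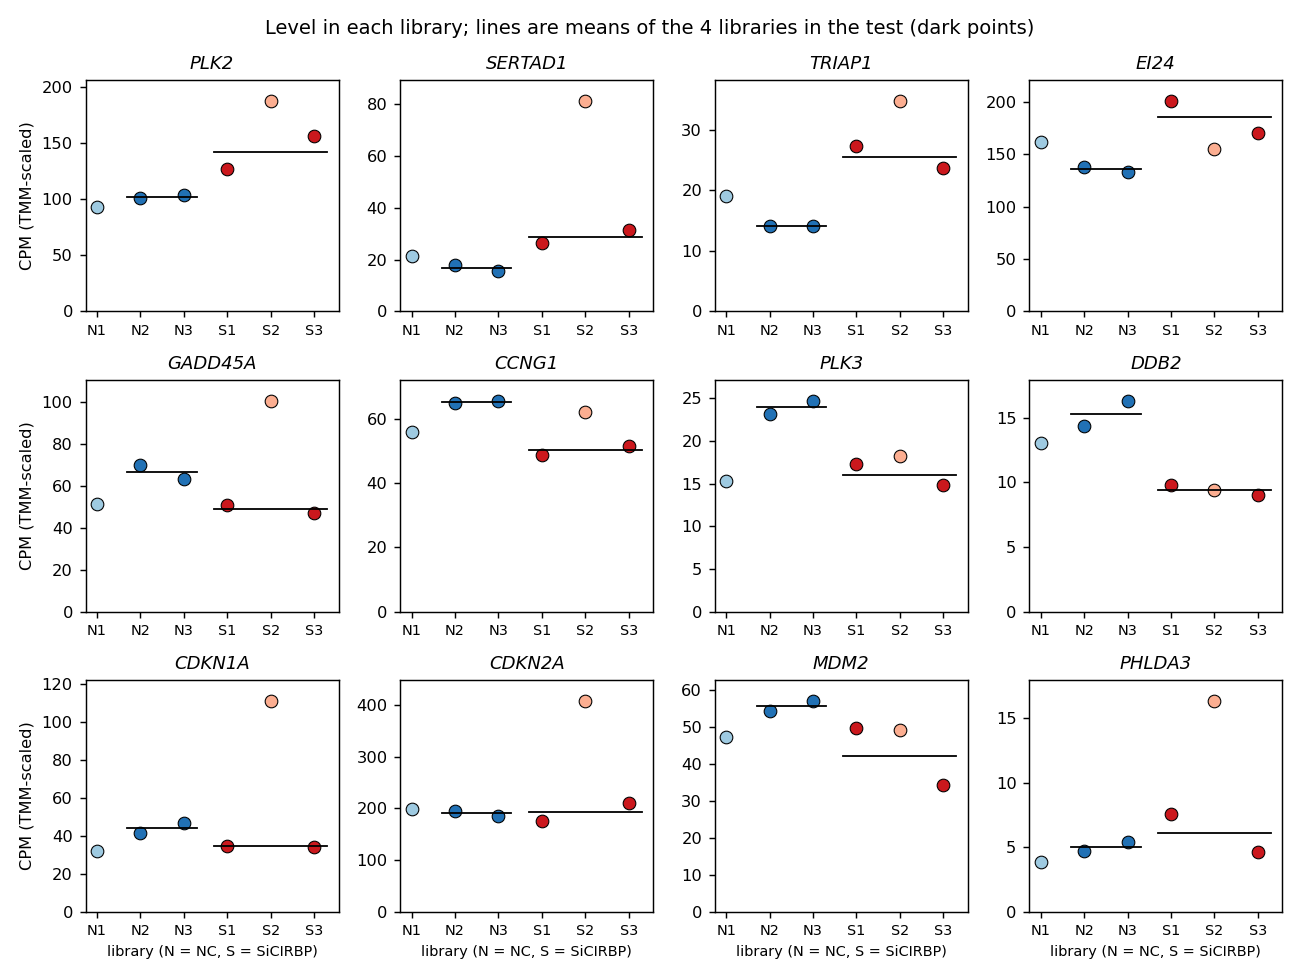
CPM (TMM-scaled, linear axis from 0) in each library for the 8 genes called over 4 libraries and for CDKN1A, CDKN2A, MDM2 and PHLDA3. Blue points are NC, red points SiCIRBP, the pale points NC_1 and SiCIRBP_2 were outside the 4-library test, and lines are the means of the 2 dark points of a group. CDKN1A and CDKN2A stand out in SiCIRBP_2, while PLK2, SERTAD1, TRIAP1 and DDB2 keep the groups apart in all 6 libraries.

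The 3 genes that feed back on p53 were not called, against 19.4% of all genes tested that were. MDM2 (ENSG00000135679, chromosome 12, 68808176 to 68850686) measured 47.3, 54.2 and 57.0 CPM in the NC libraries, 49.7 in SiCIRBP_1, 34.3 in SiCIRBP_3 and 49.0 in SiCIRBP_2. SiCIRBP_3 was the lowest, and the others lay within the NC range. The log2 fold change was -0.40 (SE 0.17, edgeR adjusted p = 0.142) over the 4 libraries, the exact permutation p over 3 against 3 libraries was 0.3, and MDM2 was 1 of the 6 genes that did not lie above the NC mean in SiCIRBP_2. PPM1D, the phosphatase that dephosphorylates p53, measured 19.0 to 19.8 CPM in NC, 18.7 and 21.7 CPM in SiCIRBP_1 and SiCIRBP_3, and 30.8 CPM in SiCIRBP_2. ZMAT3, an RNA-binding zinc finger protein, measured 9.36 to 11.4 CPM in NC, 7.84 and 8.48 in SiCIRBP_1 and SiCIRBP_3, and 15.3 in SiCIRBP_2.

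Among the 6 genes grouped under DNA repair and nucleotide supply, TRIAP1 rose and DDB2 fell, against 9.62% and 9.76% of all genes tested. Both kept their groups apart in all 6 libraries, as 16.2% of all genes did upward and 16.6% downward. TRIAP1 was counted in this group, although the role given for it here is in apoptosis. TRIAP1 (ENSG00000170855, chromosome 12, 120443961 to 120446412), a small p53-induced protein of the mitochondrial intermembrane space that protects from apoptosis, measured 19.0, 14.1 and 14.2 CPM in NC, 27.4 in SiCIRBP_1, 23.7 in SiCIRBP_3 and 34.8 in SiCIRBP_2. It had the largest called change of the 38 genes (1.81-fold, log2 0.86, SE 0.13, edgeR adjusted p = 0.0102 over the 4 libraries). DDB2 (ENSG00000134574, chromosome 11, 47214465 to 47239240), the subunit that recognizes ultraviolet damage for nucleotide excision repair, measured 13.1, 14.3 and 16.3 CPM in NC and 9.83, 9.05 and 9.41 CPM in SiCIRBP_1, SiCIRBP_3 and SiCIRBP_2. The 3 SiCIRBP values lay within 1 CPM of each other and below every NC value. DDB2 fell by 0.70 on the log2 scale over the 4 libraries (SE 0.14, edgeR adjusted p = 0.0216).

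POLH, the translesion polymerase eta, measured 27.1, 22.2 and 23.5 CPM in NC and 29.3, 27.9 and 28.9 CPM in SiCIRBP_1, SiCIRBP_3 and SiCIRBP_2. The groups did not overlap in CPM, although they did in TPM, and POLH did not pass the test (log2 0.32, SE 0.11, edgeR adjusted p = 0.0805). XPC, which opens nucleotide excision repair, measured 26.1 to 28.5 CPM in NC and 20.8 to 28.2 in SiCIRBP. RRM2B, the p53-induced ribonucleotide reductase subunit, measured 27.6 to 30.4 CPM in NC and 19.9 to 32.3 CPM in SiCIRBP. ASCC3, a helicase of alkylation repair, was the only gene of the 38 with its lowest value in SiCIRBP_2 (28.7 CPM, against 41.6 to 44.2 in NC and 41.7 and 41.9 CPM in the other SiCIRBP libraries).

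Of the 10 genes for death receptors and apoptosis, EI24 was called higher and none lower, against 9.62% and 9.76% of all genes tested. EI24 (ENSG00000149547, chromosome 11, 125569216 to 125584687), a membrane protein of the endoplasmic reticulum needed for autophagy, measured 162, 138 and 133 CPM in NC_1, NC_2 and NC_3, and 201, 171 and 155 CPM in SiCIRBP_1, SiCIRBP_3 and SiCIRBP_2. The 4 libraries of the test were apart, but SiCIRBP_2 lay below NC_1. EI24 rose 1.37-fold over the 4 libraries (log2 0.45, SE 0.10, edgeR adjusted p = 0.0269), and 10.4% of the 31-base words of its transcripts also occur in other genes, 4.51% in the pseudogene EI24P2.

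DRAM1, a lysosomal protein of p53-induced autophagy, lay just outside the threshold with the largest drop of the 38 genes (log2 -0.85, SE 0.24, edgeR adjusted p = 0.0503). It measured 16.1, 22.6 and 26.7 CPM in NC, 10.2 in SiCIRBP_1, 17.1 in SiCIRBP_3 and 31.9 in SiCIRBP_2, so that SiCIRBP_2 was the highest library and SiCIRBP_1 the lowest. PERP, a membrane protein of desmosomes, measured 6.66, 6.83 and 6.40 CPM in NC and 7.16, 15.7 and 13.1 CPM in SiCIRBP_1, SiCIRBP_3 and SiCIRBP_2. The groups did not overlap, but the 2 SiCIRBP libraries in the test differed from each other more than SiCIRBP_1 did from NC (log2 0.79, SE 0.35, edgeR adjusted p = 0.151). PHLDA3, a repressor of AKT signalling, measured 3.82, 4.66 and 5.41 CPM in NC, 7.60 and 4.60 CPM in SiCIRBP_1 and SiCIRBP_3, and 16.3 CPM in SiCIRBP_2. An overlapping noncoding gene on the same strand shares 598 of its exon bases, so its counts are less certain.

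The receptors FAS, TNFRSF10B and EDA2R were not called. FAS measured 1.40 to 1.77 CPM in NC, 1.23 and 1.14 CPM in SiCIRBP_1 and SiCIRBP_3, and 3.27 CPM in SiCIRBP_2. TNFRSF10B, the receptor DR5 for the ligand TRAIL, measured 121 to 143 CPM in NC, 83.7 in SiCIRBP_1, 138 in SiCIRBP_3 and 140 in SiCIRBP_2. EDA2R, a receptor for ectodysplasin, measured 6.13 to 7.51 CPM in NC, 4.49 and 5.41 CPM in SiCIRBP_1 and SiCIRBP_3, and 10.7 in SiCIRBP_2. FAS and EDA2R thus lay below the NC range in the 2 SiCIRBP libraries of the test and above it in SiCIRBP_2. AEN, an apoptosis-enhancing nuclease, and TP53INP1, a p53 cofactor, were also highest in SiCIRBP_2, at 143 and 32.4 CPM. Exons of XPC, FAS, SESN1 and MDM2 overlap genes of the opposite strand by 1140, 380, 363 and 785 bases, which leaves their counts uncertain in the same way as for CDKN2A. SPATA18, which acts in mitochondrial quality control, did not exceed 0.778 CPM in any library.

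None of the 6 genes of metabolism and redox was called, against 19.4% of all genes tested. In all 6 genes SiCIRBP_2 was the highest library in CPM, against 31.1% of all genes. For CMBL the margin was small, at 11.785 CPM against 11.775 in NC_3. In TPM SiCIRBP_2 was not the highest for CMBL (6.88, against 7.02 to 9.57 in NC) or for TIGAR (4.63, against 3.06 to 6.90 in NC). TP53I3, a quinone oxidoreductase, measured 18.4 to 21.1 CPM in NC, 21.5 and 18.9 CPM in SiCIRBP_1 and SiCIRBP_3, and 37.8 CPM in SiCIRBP_2. SESN1, a sestrin that restrains mTORC1, measured 4.89 to 6.55 CPM in NC, 5.65 and 8.30 in SiCIRBP_1 and SiCIRBP_3, and 11.7 in SiCIRBP_2. ACER2, a Golgi ceramidase, measured 0.561, 0.505 and 0.820 CPM in NC and 0.993, 1.03 and 1.32 CPM in SiCIRBP_1, SiCIRBP_3 and SiCIRBP_2, so that its groups did not overlap (log2 0.60, SE 0.40, edgeR adjusted p = 0.322). TIGAR, a fructose bisphosphatase that slows glycolysis, measured 23.8 CPM in SiCIRBP_2 and 10.5 to 16.5 CPM elsewhere, but 42.2% of its 31-base words also occur in an overlapping gene of the same strand. FDXR, the ferredoxin reductase of mitochondria, measured 13.0 to 15.5 CPM in NC and 12.2 to 17.4 in SiCIRBP, and CMBL, a hydrolase, 11.0 to 11.8 CPM in NC and 8.18 to 11.8 in SiCIRBP.

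The secreted factors were low. GDF15, a stress-induced cytokine, measured 2.52, 3.92 and 4.69 CPM in NC and 5.48, 1.64 and 4.28 CPM in SiCIRBP_1, SiCIRBP_3 and SiCIRBP_2, so that SiCIRBP_1 was the highest and SiCIRBP_3 the lowest library of the 6. KITLG, the ligand of KIT, ranged from 1.23 to 2.37 CPM. Of the remaining genes, BLOC1S2, a subunit of a lysosome positioning complex, measured 27.6 to 29.4 CPM in NC, 28.1 and 33.3 CPM in SiCIRBP_1 and SiCIRBP_3, and 53.7 CPM in SiCIRBP_2. The long noncoding RNA TP53TG1 had the highest 4-library estimate of the 38 (log2 1.01, SE 0.34, edgeR adjusted p = 0.0826) on 23 to 56 counts per library, and in SiCIRBP_2 it lay within the NC range.

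Set against all 3 NC libraries, SiCIRBP_2 held higher levels of many of the 38 genes, among them CDKN1A and CDKN2A, than SiCIRBP_1 and SiCIRBP_3 did. It was the highest of the 6 libraries for 25 of the 38 genes (65.8%), against 31.1% of all genes tested, and the lowest for 1 gene, against 32.2%. It was at least 2-fold above the NC mean for 6 genes (15.8%), SERTAD1, PHLDA3, CDKN1A, BTG2, TRIAP1 and CDKN2A, against 4.2% of all genes, and at least 2-fold below it for 0 genes, against 5.13%. The folds over the NC mean, on the log2(CPM + 1) scale, were 4.30 for SERTAD1, 3.10 for PHLDA3, 2.77 for CDKN1A, 2.27 for BTG2, 2.15 for TRIAP1 and 2.11 for CDKN2A. The added 1 CPM shrinks folds of genes with low CPM, so the number of genes past 2-fold depends on it. SESN1, FAS and ACER2 measured 11.7, 3.27 and 1.32 CPM in SiCIRBP_2, against NC means of 5.54, 1.58 and 0.629, and were not counted. The share of all genes used the same scale. SiCIRBP_2 is a single library, so these values have no replicate check.

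The median difference of the 38 genes from the NC mean was 0.55 in SiCIRBP_2, where 32 of 38 lay above it, but -0.05 in SiCIRBP_1 and -0.15 in SiCIRBP_3. The median of all genes in SiCIRBP_2 was -0.01, and that of 21 further p53 targets outside the 38 was 0.10, with 9 of them highest and 5 lowest in SiCIRBP_2. The other pathway lists described below differed. The median was 0.50 for 9 apoptosis effectors (6 highest, 0 lowest) and 0.63 for 15 cell cycle brakes, cell cycle drivers and senescence markers (8 and 5). It was 0.25 for 10 cell cycle genes that p53 represses (4 and 2), but -0.58 for 16 regulators of p53 (2 and 11). By role, the median in SiCIRBP_2 was 0.91 for growth arrest, 0.63 for metabolism, 0.60 for death receptors and apoptosis, 0.53 for feedback on p53 and 0.10 for DNA repair (with TRIAP1 counted), the lowest of these groups. DDB2, PLK3, MDM2 and CCNG1 were at -0.58, -0.17, -0.10 and 0.00 there. MDM4, the partner of MDM2 that represses p53, measured 44.5, 50.6 and 51.4 CPM in NC, and 42.6, 33.0 and 31.9 CPM in SiCIRBP_1, SiCIRBP_3 and SiCIRBP_2, so that every SiCIRBP library was below every NC library (4 libraries, log2 -0.43, SE 0.14, edgeR adjusted p = 0.0676).

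**Figure D3:**
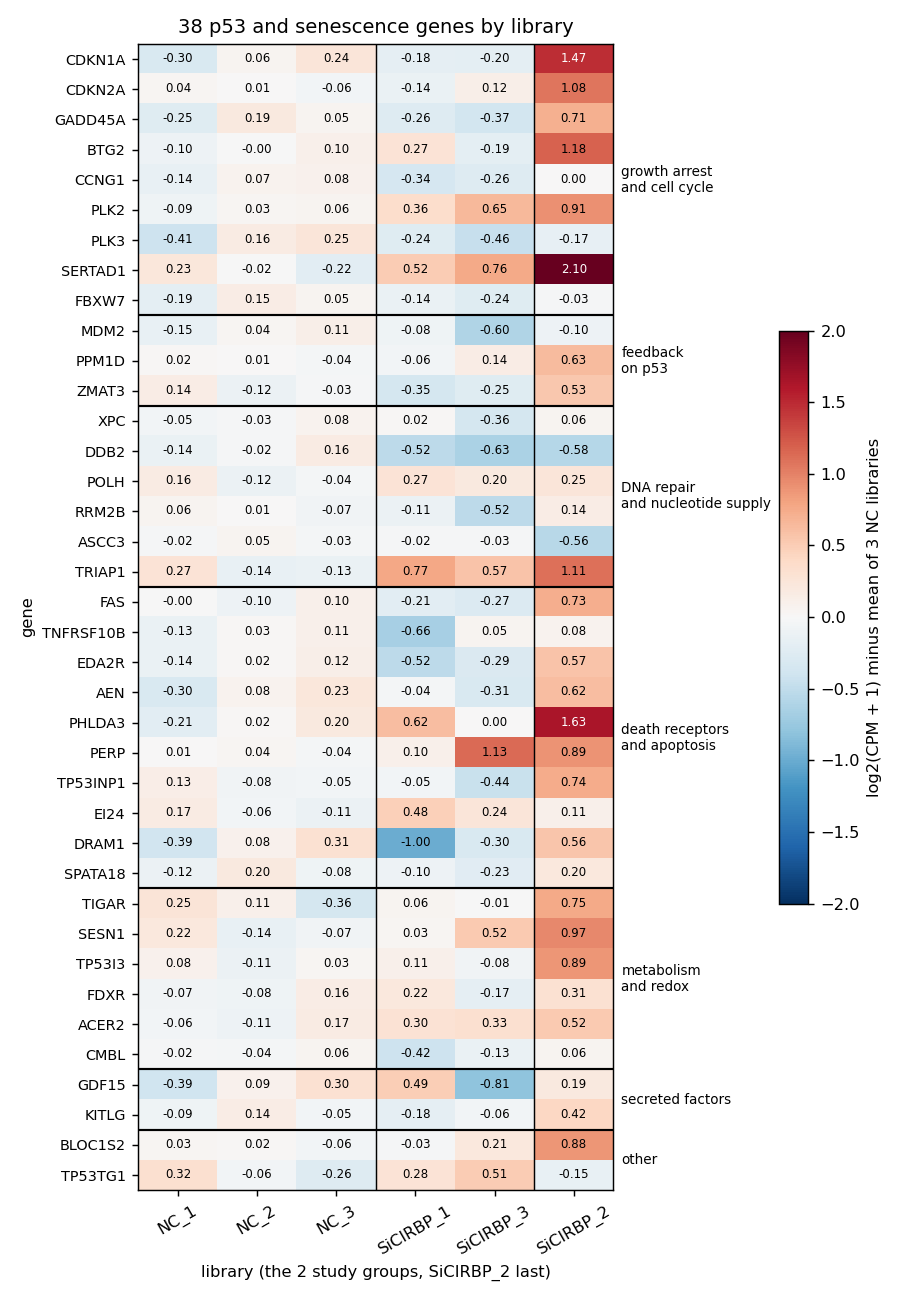
Difference of log2(CPM + 1) from the mean of the 3 NC libraries (colour and printed number) for each of the 38 genes (vertical axis, grouped by role) in each of the 6 libraries (horizontal axis, SiCIRBP_2 last). The SiCIRBP_2 column has a median of 0.55 and reaches 2.10, while the columns of SiCIRBP_1 and SiCIRBP_3 have medians of -0.05 and -0.15.

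SiCIRBP_2 differed from the NC libraries along gene length as well. Over all genes tested, its median difference from NC went from 0.23 for the shortest genes (68 to 1531 bases) to -0.30 for the longest (at least 5048 bases). The mean of SiCIRBP_1 and SiCIRBP_3 went the same way to a smaller extent, from 0.08 to -0.12. The 38 genes had a median length of 2779 bases, close to the 2803 bases of all genes. After each gene was set against the median of genes of like length, their median difference in SiCIRBP_2 was 0.53, with 31 of 38 above 0 and 6 still at least 2-fold higher. In TPM the 38 genes had a median of 0.18 in SiCIRBP_2 against -0.18 over all genes. On that scale 18 of 38 (47.4%) were highest in SiCIRBP_2 against 19.3% of all genes, and 3 genes, SERTAD1, PHLDA3 and CDKN1A, were at least 2-fold above NC, against 2.34%. The high interferon-stimulated genes and the lowest CIRBP level were in the same library, and their part in the p53 target levels was not tested.

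**Figure D4:**
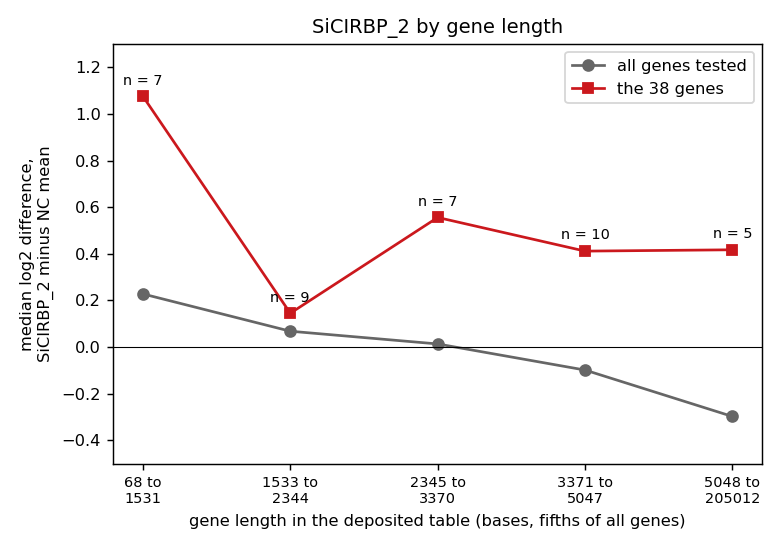
Median log2 difference of SiCIRBP_2 from the NC mean (vertical axis) in 5 classes of gene length (horizontal axis, bases), for all genes tested (grey) and for the 38 genes (red, with their number in each class). The grey line goes from 0.23 to -0.30, and the red points, each from 5 to 10 genes, all lie above it.

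Over all 6 libraries no gene was called. The edgeR test gave 0 of 38 members and 0.0% of 15217 genes at an adjusted p under 0.05, the smallest adjusted p being 0.0853, although 3603 genes and 7 of the 38 (PLK2, SERTAD1, DDB2, TRIAP1, PHLDA3, PERP and ACER2) had an unadjusted p under 0.05. DESeq2 on the same 6 libraries called 1351 genes, with 4 of the 38 higher (PLK2, SERTAD1, TRIAP1 and PERP) against 4.48% of 14186 genes, and DDB2 lower against 5.04%. Without SiCIRBP_2 but with NC_1, edgeR called PLK2, SERTAD1 and TRIAP1 higher, against 3.57% of 15530 genes, and DDB2 lower, against 3.63%. These 4 genes were thus called with and without NC_1, and by DESeq2 with SiCIRBP_2 as well. In limma on log2(TPM + 1) over the 4 libraries, TRIAP1 (adjusted p = 0.0331) and DDB2 (adjusted p = 0.0372) were called. SERTAD1 (log2 0.66, adjusted p = 0.0541) and PLK2 (log2 0.26, adjusted p = 0.290) were not. Limma also called CCNG1 (adjusted p = 0.0423) and GADD45A (adjusted p = 0.0459) lower. Every SiCIRBP library was above every NC library for 6 of the 38 genes (PLK2, SERTAD1, POLH, TRIAP1, PERP and ACER2, 15.8%) against 16.2% of all genes, and below for DDB2 alone (2.63%) against 16.6%. In TPM the number above was 6 against 8.61% of all genes, and the number below was 6, with CCNG1, FBXW7, XPC, RRM2B and SPATA18 added, against 22.6%.

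NC_1 and SiCIRBP_2 were not used in the 4-library test and were set against each other for the 8 genes it called. SiCIRBP_2 differed from NC_1 in the called direction for 4 of the 8 genes (50%), against 74.2% of the 2989 genes called in all. PLK2, SERTAD1 and TRIAP1 were higher than NC_1 by 1.01, 1.87 and 0.84 on the log2(CPM + 1) scale, and DDB2 differed by -0.43. EI24 (-0.06), CCNG1 (0.15), PLK3 (0.24) and GADD45A (0.96) went the other way. NC_1 was nearer to the mean of SiCIRBP_1 and SiCIRBP_3 than to that of NC_2 and NC_3 for 5 of the 8 genes (62.5%, EI24, CCNG1, PLK3, GADD45A and TRIAP1), against 45.4% of the called genes.

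Other genes of the pathway, from lists of textbook members, were read from the same 4-library test, in which 9.62% of all genes were called higher and 9.76% lower. Adding NC_1 to it lowered the calls of all genes to 3.57% and 3.63%. Among 16 tested regulators of p53, 0 were called higher and 4 lower. These were SIRT1, a deacetylase of p53 (log2 -0.73), KAT5 (-0.55) and CREBBP (-0.46), both acetyltransferases, and CHEK1, a checkpoint kinase (-0.39). The median of these regulators was -0.21, and 2 of 16 were positive. With NC_1 added, 0 of these 4 were called, with edgeR adjusted p-values from 0.0600 for SIRT1 to 0.119 for CREBBP. Of 9 tested apoptosis effectors, BAX (0.39) and BAK1 (0.39) were called higher and PMAIP1, which encodes NOXA, lower (-0.73). PMAIP1 measured 10.1, 15.7 and 15.2 CPM in NC, 8.39 and 10.2 CPM in SiCIRBP_1 and SiCIRBP_3, and 54.3 CPM in SiCIRBP_2, so that SiCIRBP_2 stood far above the NC range, as it did for CDKN1A. Of 21 further p53 targets tested, the decoy receptor TNFRSF10D (0.74) and IER5 (0.63) were called higher and the cytokine LIF lower (-1.32). With NC_1 added, BAX, TNFRSF10D and IER5 were still called.

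Of 10 cell cycle genes that p53 and p21 are known to repress through the DREAM complex, CCNB1 (log2 0.68), CCNB2 (0.57), PLK1 (0.65), BUB1 (0.46), MKI67 (0.50) and BIRC5 (0.71) were called higher over the 4 libraries and none lower, with all 10 estimates above 0. With NC_1 added, BIRC5 alone was called. In SiCIRBP_2, MKI67 measured 143 CPM against 347 to 469 CPM in NC, while CCNB1, PLK1 and BIRC5 were at 402, 306 and 331 CPM, above their values in SiCIRBP_1 and SiCIRBP_3. In NC_1 the median of these genes was 0.36 above the mean of NC_2 and NC_3. In SiCIRBP_1 it was 0.34 above the mean of all 3 NC libraries, so these values have different references. A mixed list of 16 genes held cell cycle brakes and markers of the senescent state. It also held CCND1, CDK4 and CDK6, which drive the cycle. CDKN2C (0.92), CCND1 (0.83), CDK6 (0.59), LMNB1 (0.53), HMGA1 (0.29) and HMGA2 (1.08) of this list were called higher and RBL2 (-0.37) lower. Of these, CCND1, CDK6 and HMGA2 were still called with NC_1 added. LMNB1, lamin B1, is known to be lost in senescent cells, and it measured 118 to 185 CPM in NC and 170 to 275 CPM in SiCIRBP. GLB1, which encodes the lysosomal beta-galactosidase used as a senescence stain, measured 80.4 to 85.3 CPM in NC and 79.7 to 83.2 CPM in SiCIRBP (log2 0.02, edgeR adjusted p = 0.910).

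The ratio of counts to TPM gives the transcript length that the authors' quantification implied for a gene in a library. For 5 of the 38 genes (13.2%) this length differed by more than 0.2 on the log2 scale between the group means, against 13.4% of all genes. SPATA18, FAS and ASCC3 had the largest differences, at 0.91, -0.42 and -0.32. CDKN1A had shorter implied transcripts in every SiCIRBP library than in any NC library, but by a log2 of only -0.07. In 4 genes they were longer in every SiCIRBP library, SPATA18, FBXW7 (0.30), DRAM1 (0.22) and BLOC1S2 (0.12). Among all 15121 genes measured this way, 1036 were longer and 1241 shorter in every SiCIRBP library. These values have no test, and for SPATA18 and FAS they rest on low counts.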

How the data were processed

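RNA-seq libraries of cells given a control siRNA (NC, 3) or a siRNA that targets CIRBP (SiCIRBP, 3) were grouped and numbered by their labels. The authors deposited estimated counts per gene and library, which are not all whole, together with TPM values. Columns of the authors' own comparisons, deposited as a ratio (fold), a log2 fold change, p-values and adjusted p-values, were not used, and the deposited gene length was used to sort genes by length. The submitters' processing notes name fastp, HISAT, RSEM and the genome build hg38, and versions, the order of use and the strand setting are not given in the sources used here.

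Estimated counts were rounded, and edgeR 4.0.16 (R 4.3.3) was fitted (TMM, filterByExpr, quasi-likelihood test, Benjamini-Hochberg over all genes tested, called at an adjusted p under 0.05), first over the 4 libraries of the study's own test (NC_2, NC_3, SiCIRBP_1, SiCIRBP_3), then over all 6 and over 5 without SiCIRBP_2. The SE given with edgeR estimates is implied by the test statistic, as the absolute log2 fold change over the square root of F. Differences of a single library are of log2(CPM + 1), with a pseudocount of 1. Totals were 25726259 to 29919566 estimated counts, and counting error is large only for the genes with the lowest counts. CDKN1A, CDKN2A and MDM2 were also compared by exact permutation in scipy 1.17.1. Full values were given for these 3 genes and for genes called, at least 2-fold from the NC mean in SiCIRBP_2, or not overlapping between groups, and outside the 38 genes for CIRBP and MDM4. Called genes of the other lists were named with their log2 fold change. A further gene named by that rule is not reported here. DRAM1, PMAIP1 in each library, MKI67, LMNB1 and GLB1 were named after their values were seen. The 38 genes and all lists were chosen with earlier results of these data known. Locations and shared sequence (31-base words) came from GENCODE 29 on GRCh38, and promoters from RefSeq. The fits were tested on simulated data with 200 genes changed by a log2 of 1.5. Of these, 93% were recovered over the 4 libraries (15163 genes) and 98.5% over the 6 (15029 genes). Among the unchanged genes, 14 and 3 were called. Every simulated gene had the same set spread between libraries, and none of the 38 genes changed by as much as 1.5 over the 4 libraries. Recovery of changes as small as those seen here was therefore not tested. The alternatives were DESeq2 1.42.0, leaving out 1 library at a time, RLE size factors, other filters on low counts, limma 3.58.1 on log2(TPM + 1), the replicate number as a block, and TPM in place of CPM. With 1 library left out of 4, the lone library of a group is assumed to vary like the other group. Further settings over 6 libraries, RLE for the overlap of groups and centring on genes of like length were added after seeing the data.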

Additional observations from a re-analysis of the deposited data

How the results depend on the processing

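Over the 4 libraries, 4 of the 38 genes were called higher and 4 lower, and 19.4% of all genes in either direction. The counts higher and lower were 0 and 0 with all 6 libraries, 0 and 0 over all 6 with the replicate block, 0 and 0 over 5 libraries without NC_1, 3 and 1 over 5 without SiCIRBP_2 (7.20% of all genes), 4 and 1 by DESeq2 over all 6 libraries (9.52%), 6 and 10 with no filter on low counts (17.4%), 1 and 3 by limma on log2(TPM + 1) (7.83%), and 0 and 0 where 2-fold was also required. Leaving out 1 library gave 0 to 9 higher and 0 to 13 lower, while calls of all genes went from 0.403% to 44.3%. RLE size factors, DESeq2 over the 4 libraries and a minimum of 10 counts in every library gave 4 higher, and 4, 5 and 5 lower. The 0 calls over 6 libraries became 3 with no filter (3.15% of all genes) and 0 to 4 with 1 library left out, 4 without SiCIRBP_2. In TPM, 6 genes instead of 1 lay below every NC library in every SiCIRBP library (22.6% of all genes instead of 16.6%), and 3 instead of 6 were at least 2-fold above the NC mean in SiCIRBP_2 (2.34% instead of 4.2%).

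CDKN1A changed sign, from a log2 fold change of -0.35 to 0.59 with all 6 libraries, 0.36 with the replicate block, 0.45 without NC_1 and 0.59 by DESeq2 over all 6. GADD45A changed sign from -0.45 to 0.10 with all 6 libraries, 0.026 with the replicate block and 0.11 by DESeq2 over all 6. CDKN2A, near 0 at 0.02, was -0.001 without SiCIRBP_2 over 5 libraries, -0.067 by limma on TPM and -0.12 to 0.14 with 1 library left out, -0.02 without NC_3. Each of these settings for CDKN1A and GADD45A includes SiCIRBP_2. The other 8 genes of the 11 followed through all settings kept their direction. The labels number libraries 1 to 3 in both groups. Deviations of same-numbered libraries from their group means correlated at -0.12, 0.01 and -0.03 across genes. These values show no pairing by number, but with 3 libraries per group a weak pairing could be missed. The replicate block called no member, and neither did the fit over all 6 libraries without it. Counts were the limit for SPATA18, ACER2, FAS, KITLG and TP53TG1.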
